A study of Mus musculus with 6 samples.

Results

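Pigment synthesis and melanosome genes were followed in the bulbs of mouse hair follicles at postnatal day 9, during the growth of the first coat. The 10 genes, of 18194 named on the array, were chosen by symbol: Tyr, Tyrp1, Dct, Pmel, Mlana, Slc45a2, Oca2, Gpr143, Mc1r and Trpm1. They were represented by 19 of the 45101 probe sets, each a group of short oligonucleotides read as 1 signal, and all 19 were bright enough to enter the tests. Total RNA of 3 groups was hybridised to 6 one-colour arrays. The emN1 bulbs (2 arrays) came from an area where Notch1 was deleted in the embryo and lacked functional Notch1. The anN1 bulbs (2 arrays) came from an area where the deletion took place in anagen, the growth phase of the hair cycle, and still had functional Notch1. Wild-type bulbs (2 arrays) made up the third group. The study treated anN1 and wild-type alike as controls, so that 2 emN1 arrays were set against 4 control arrays. The driver of the deletion, the strain and its coat colour, and whether RNA of 1 animal or a pool went on an array were not stated in the labels or the design text. The arrays were run in 2 sets, the first with emN1 replicate 1 and anN1 replicate 1 and the second with the other 4. Replicates are labelled biological, but nothing ties them to separate animals, and the p-values below cover only the spread among these arrays.

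Notch1 itself was read by its brighter probe set at 6498 and 6292 signal units in emN1, at 15077 and 12527 in anN1, and at 23750 and 34070 in wild-type. The anN1 values thus lay between those of emN1 and wild-type without overlap, and whether the probe set lies in the deleted stretch is not given. Every array had been scaled alike by the authors, and the median signal over all probe sets was 229 to 263 in emN1, 241 to 253 in anN1 and 220 to 254 in wild-type. The signal ratio of the 3′ to the 5′ actin control probe sets, a sign of RNA quality and labelling, was 4.59 (emN1) and 5.64 (anN1) in set 1 and between 2.39 and 2.71 in set 2. For Gapdh the same ratio was 4.79 (emN1) and 6.96 (anN1) in set 1 and between 4.64 and 5.45 in set 2. By Gapdh the emN1 array of set 1 thus lay within the range of set 2, and the sets were not separated.

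Melanin is made in melanosomes, organelles that melanocytes of the hair bulb build and pass on to the keratinocytes of the growing shaft. Pmel lays down the fibrils on which pigment is deposited, Tyr catalyses the first step of synthesis, and Tyrp1 and Dct catalyse later ones, while transporters and channels of the organelle set the conditions in which Tyr works. The receptor Mc1r raises cyclic AMP in the melanocyte and turns synthesis towards black eumelanin. Many of these genes are direct targets of the transcription factor Mitf, which binds E-box motifs in their promoters.

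Promoter sequences were available from RefSeq (build GRCm38.p6) for 6 of the 10 genes (7 promoters), and 5 of the 6 held the motif TCATGTG, a form of the E-box bound by Mitf, within 250 bases before an annotated start. Those stretches are shown because they hold this motif, and whether it had a part in the changes of these genes was not tested. They are reference sequence, not sequence of the mice studied. The motif is in capitals, each line reads 5′ to 3′ on the strand of the gene, and all of it lies upstream of the annotated start.
Tyr, chr7:87493513-87493584 (- strand): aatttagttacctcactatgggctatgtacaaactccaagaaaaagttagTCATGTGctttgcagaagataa
Tyrp1, chr4:80834116-80834212 (+ strand): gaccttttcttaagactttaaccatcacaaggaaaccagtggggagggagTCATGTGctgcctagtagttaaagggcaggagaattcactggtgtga
Dct, chr14:118052341-118052447 (- strand): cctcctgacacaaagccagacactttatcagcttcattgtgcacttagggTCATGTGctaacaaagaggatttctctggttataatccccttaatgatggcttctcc
Mc1r, chr8:123406980-123407081 (+ strand): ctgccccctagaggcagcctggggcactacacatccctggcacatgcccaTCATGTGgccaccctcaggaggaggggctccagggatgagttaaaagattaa
Trpm1, chr7:64153643-64153749 (+ strand): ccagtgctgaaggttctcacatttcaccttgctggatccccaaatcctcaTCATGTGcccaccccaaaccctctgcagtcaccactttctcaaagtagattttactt

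The motif began 22 bases before the annotated start of Tyr, 47 before that of Tyrp1, 151 before that of Dct, 52 before that of Mc1r and 142 before 1 of the 2 annotated starts of Trpm1. Dct held a further copy on the opposite strand. Of all 32851 promoters in the table, 3.25% held TCATGTG on either strand. The shorter core CATGTG, which every TCATGTG contains, was found for all 6 genes, Oca2 included, and in 12.3% of all promoters. In Tyr, Tyrp1 and Dct the motif was followed by the same bases, so that all 3 held TCATGTGCT, which 0.335% of all promoters held; this longer form was picked after the sequences had been seen. The other E-box form searched, CACGTG, occurred only at the second Trpm1 start among the 7 promoters (6.02% of all). The Sox motifs ACAAAG and ACAATG were found for 3 genes (Dct, Oca2 and Tyrp1) and for 1 (Dct), against 16.5% and 10.7% of all promoters. These matches describe letters in the reference and show no binding.

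All 10 pigment genes were lower in emN1 bulbs than in the controls. On the log2 scale the decreases lay between 1.21 and 2.46, with a median difference of -1.85, and the emN1 mean was 17.2% to 44.7% of the control mean. With the brightest probe set of each gene Trpm1 fell most and Pmel least, but with the mean of all kept probe sets Trpm1 was at -1.75 and Gpr143, at -2.18, fell most. The median difference of all 12611 genes tested was -0.02, and 1.83% of them were called lower in emN1. The calls rest on limma with a variance that follows signal intensity and with array set as a term, two-sided, at a Benjamini-Hochberg adjusted p of 0.05 over all 27022 probe sets kept. In bulk RNA of a bulb, fewer melanocytes and less of these transcripts per melanocyte cannot be told apart.

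**Figure D1:**
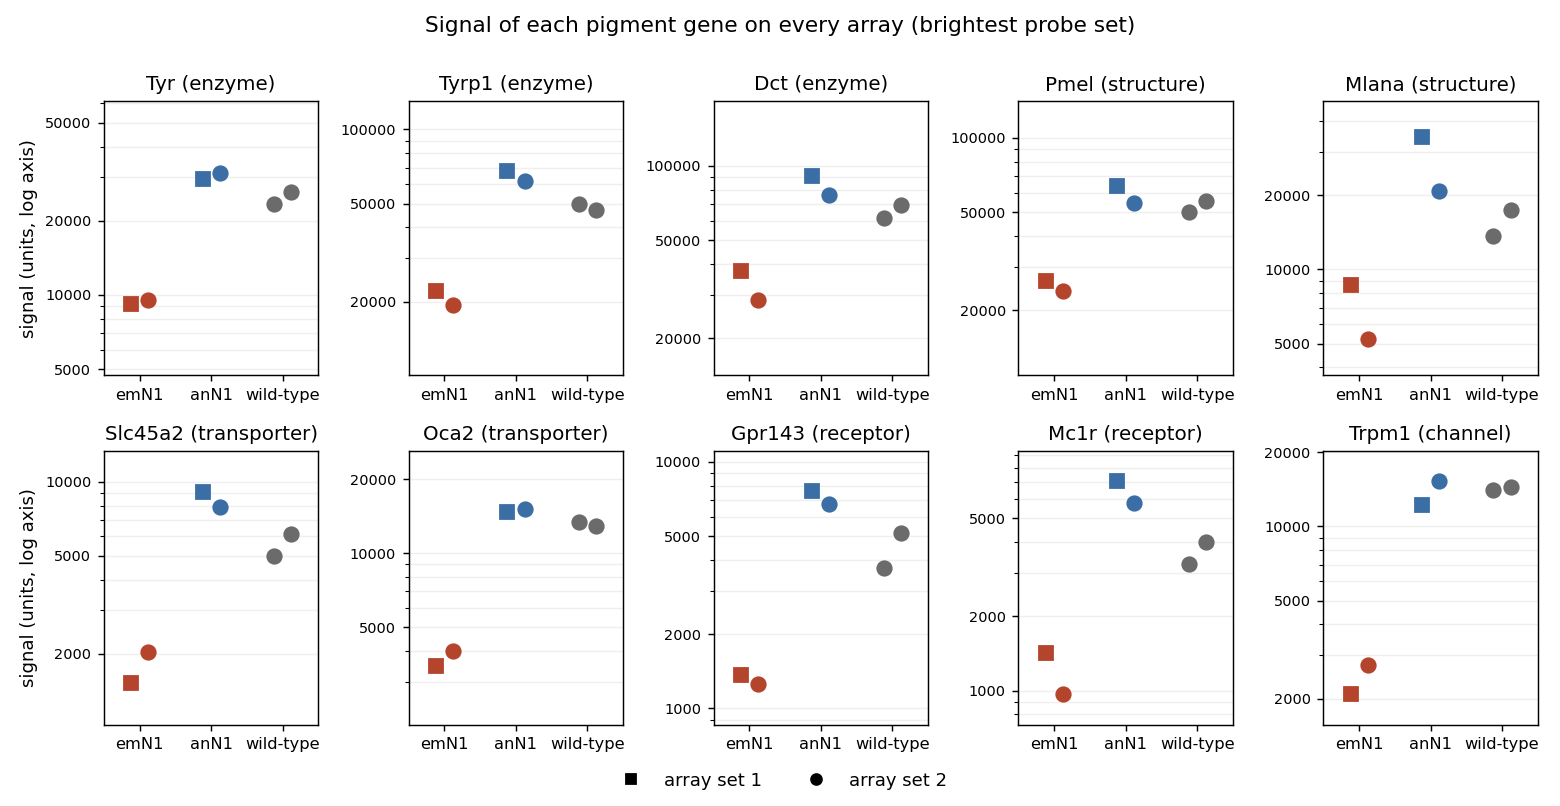
Signal (log axis, in signal units) of the brightest probe set of each pigment gene on all 6 arrays, by group; squares are arrays of set 1 and circles of set 2. In all 10 panels both emN1 points lie below the 4 control points.

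Tyr, the enzyme that oxidises tyrosine and limits the rate of melanin synthesis, was at 9219 and 9531 signal units in emN1, at 29671 and 31382 in anN1, and at 23467 and 26101 in wild-type. The 2 emN1 values lay close together and far below the lowest control. Tyr fell by 1.57 on the log2 scale (SE 0.13; limma adjusted p = 0.00175), and the emN1 mean was 33.9% of the control mean. Tyrp1, which in the mouse oxidises an indole intermediate of eumelanin, had 22013 and 19372 signal units in emN1, 67604 and 61675 in anN1, and 49881 and 46902 in wild-type. Dct, which converts dopachrome to that intermediate, had 37339 and 28566 in emN1, 90929 and 76012 in anN1, and 61315 and 69526 in wild-type. For both enzymes the groups were set apart in the same order, with emN1 lowest, wild-type between and anN1 highest. Tyrp1 fell by 1.51 (SE 0.12; limma adjusted p = 0.00175) and Dct fell by 1.27 (SE 0.10; limma adjusted p = 0.00154).

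Pmel, whose protein forms the amyloid fibrils of the early melanosome, gave 26159 and 23985 signal units in emN1, 64108 and 54581 in anN1, and 49952 and 55483 in wild-type. Here the 2 kinds of control overlapped, and emN1 lay at 44.7% of the control mean. Pmel fell by 1.21 (SE 0.08; limma adjusted p = 0.00114). Mlana, a small membrane protein of the melanosome that takes part in the processing of Pmel, was measured at 8642 and 5229 in emN1, 34352 and 20724 in anN1, and 13654 and 17417 in wild-type. Relative to their level its replicates were further apart than those of Pmel in every group, and its lowest control was still above both emN1 arrays. Mlana fell by 1.81 (SE 0.17; limma adjusted p = 0.00208).

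Slc45a2, a transporter of the melanosome membrane whose loss dilutes coat colour, had 1518 and 2029 signal units in emN1, 9085 and 7885 in anN1, and 4998 and 6111 in wild-type. It fell by 1.99 (SE 0.24; limma adjusted p = 0.00519), which was the largest SE and the largest adjusted p of the 10. Oca2, the pink-eyed dilution protein, which takes part in the control of melanosome pH, had 3487 and 4016 in emN1, 14720 and 15047 in anN1, and 13417 and 12927 in wild-type. Control values of Oca2 differed little among themselves, and the gene fell by 1.89 (SE 0.12; limma adjusted p = 8.38e-04).

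Gpr143, a receptor inside the cell on the melanosome membrane that limits melanosome size, was at 1367 and 1253 signal units in emN1, 7614 and 6725 in anN1, and 3720 and 5130 in wild-type. It fell by 2.18 (SE 0.23; limma adjusted p = 0.00333). Mc1r, the melanocortin receptor of the cell surface, was at 1421 and 966 in emN1, 7077 and 5784 in anN1, and 3255 and 4019 in wild-type. It fell by 2.19 (SE 0.22; limma adjusted p = 0.00296). In both receptor genes the 2 anN1 signals were above the 2 wild-type signals as well. Trpm1, a cation channel of melanocytes and of retinal bipolar cells, gave 2092 and 2741 in emN1, 12251 and 15224 in anN1, and 14070 and 14507 in wild-type. Its control groups overlapped, and it fell by 2.46 (SE 0.10; limma adjusted p = 1.54e-04), the smallest adjusted p of any gene in this comparison.

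Both emN1 signals lay under all 4 control signals for 10 of 10 genes and 19 of 19 probe sets, against 10.4% of all genes and 9.33% of all probe sets. No signal of the 19 probe sets was under 112 units on any array, a limit set at the 95th percentile of bacterial controls without signal. The higher emN1 signal was between 22.4% and 63.3% of the lowest control signal over the 10 genes. The calls, unlike the directions, rested on few arrays. Without emN1 replicate 2 only Trpm1 of the 10 genes was called (limma adjusted p = 0.0389 for Trpm1 and at most 0.112 for the others), and it was then the only gene called of all those tested. Without emN1 replicate 1, and likewise without anN1 replicate 1, 7 of 10 were called (0.333% of all genes), with Slc45a2, Gpr143 and Mc1r not past the threshold. With the set term these 2 omissions give the same estimates, since the remaining array of set 1 then has no partner, and they count as 1 check. Without emN1 replicate 2 the estimates are those of set 1 alone, 1 emN1 array against 1 anN1 array. A group left with 1 array is assumed to vary like the others. In limma without the intensity trend 0 of 10 were called and 0 of all genes (limma adjusted p of the 10 between 0.0521 and 0.0749). All 10 had an unadjusted limma p under 0.05 in that fit, as had 2186 of all 12611 genes, counting both directions. All 10 differences were below 0 in each of these fits.

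Against anN1 alone, 10 of 10 pigment genes were called lower in emN1, where 0.896% of all genes were (limma, 3 groups with array set). Decreases ran from 1.24 for Pmel to 2.50 for Trpm1, with a median difference of -1.99. Against wild-type alone, 10 of 10 were again called lower, where 0.872% of all genes were, with decreases from 1.16 for Dct and Pmel to 2.39 for Trpm1 and a median difference of -1.58 (limma adjusted p at most 0.0151). These 2 comparisons share the emN1 arrays and are not independent. The calls depended on emN1 replicate 1, emN1 replicate 2, anN1 replicate 1 and anN1 replicate 2. With any of these left out, no pigment gene was still called against anN1, and at most a few against wild-type. Calls over the whole array fell with them: 0% of all genes were called lower than in anN1 in each of these fits, and 0.0317%, 0%, 0.0396% and 0.0396% lower than in wild-type.

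Between the 2 kinds of control, 0 of 10 pigment genes passed (limma adjusted p = 0.999 for each; 6 of 10 at an unadjusted p under 0.05), where 0.127% of all genes did and 4.76% had an unadjusted p under 0.05. With the brightest probe set of each gene, the fitted differences, anN1 minus wild-type, were above 0 for all 10. They lay between 0.08 and 0.67 with a median of 0.34. For 8 of the 10, all but Pmel and Trpm1, both anN1 signals were above both wild-type signals, against 19.4% of all genes. Slc45a2 (0.67, SE 0.21), Gpr143 (0.63, SE 0.21) and Mc1r (0.61, SE 0.19) had the largest values among the brightest probe sets. Over all probe sets 17 of 19 were above 0, and the order changed. Below 0 were Slc45a2 with 1437430_at (-0.10) and Tyr with 1456095_at (-0.07). Trpm1 had 1.03 with 1437445_at and 0.77 with 1437531_at. Mc1r signals, for instance, were 7077 and 5784 in anN1 against 3255 and 4019 in wild-type. In limma without the intensity trend 0 of 10 differed between the controls at an unadjusted p under 0.05.

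**Figure D2:**
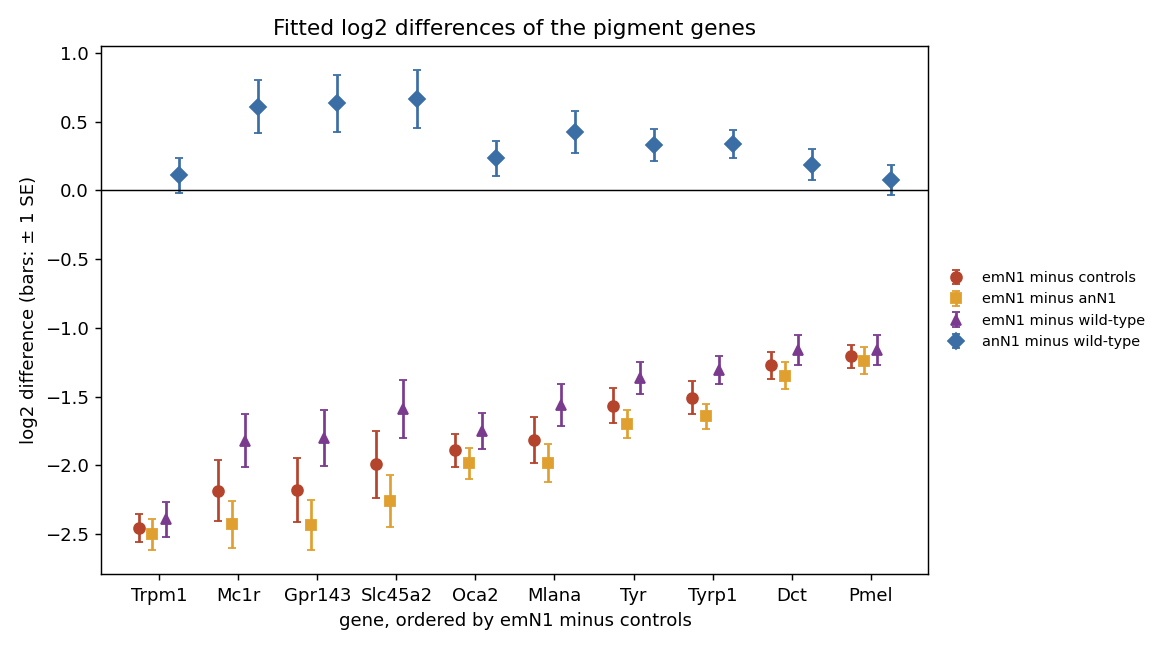
Fitted log2 differences (y axis; bars are ± 1 SE) of the 10 pigment genes in 4 comparisons, ordered by emN1 minus controls. With the brightest probe set of each gene, the comparisons with emN1 lie between -2.50 and -1.16, and anN1 minus wild-type between 0.08 and 0.67.

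Because emN1 and anN1 were hybridised together in each set, each set gave its own difference between single arrays. In set 1 the 10 log2 differences, emN1 minus anN1, ran from -2.57 (Slc45a2) to -1.28 (Dct) with a median of -2.03. In set 2 they ran from -2.56 (Mc1r) to -1.19 (Pmel) with a median of -1.92. Several genes gave nearly the same value in both sets: Tyr had -1.68 in set 1 and -1.72 in set 2, Mlana had -1.99 and -1.98 in the same order, and Gpr143 had -2.46 and -2.41. Slc45a2 was furthest apart, at -2.57 in set 1 and -1.95 in set 2. Across the 10 genes the set 1 and set 2 differences had a Pearson r of 0.88 and a Spearman rho of 0.81, given as a description over genes that share the arrays. In set 2, emN1 minus the mean of wild-type ran from -2.37 (Trpm1) to -1.13 (Pmel) with a median of -1.50.

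With each gene centred on its wild-type mean, all 10 were below 0 on both emN1 arrays. Their median was -1.38 in emN1 replicate 1 (from -2.76 for Trpm1 to -0.81 for Dct) and -1.50 in emN1 replicate 2 (from -2.37 for Trpm1 to -1.13 for Pmel). It was 0.48 in anN1 replicate 1 (from -0.22 for Trpm1 to 1.15 for Mlana) and 0.35 in anN1 replicate 2 (from 0.05 for Pmel to 0.67 for Mc1r). The 2 wild-type arrays themselves differed by 0.04 (Trpm1) to 0.46 (Gpr143), a largest gap close in size to these anN1 medians. Replicate 1 of emN1 and anN1 was hybridised in another set than wild-type, so those medians carry any difference between the sets. Over the 6 arrays each gene correlated with the mean of the other 9 at a Pearson r between 0.93 (Mlana) and 0.99 (Tyr, Tyrp1, Pmel and Gpr143), which is a description of 6 arrays whose groups differ.

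The order of the genes by size of decrease depended on the probe set. With the brightest probe set of each gene it ran Trpm1, Mc1r, Gpr143, Slc45a2, Oca2, Mlana, Tyr, Tyrp1, Dct and Pmel. Mc1r and Gpr143 stood side by side at -2.19 and -2.18, each with an SE over 0.2, and no order is read from them. Nor is one read from Slc45a2 (-1.99), Oca2 (-1.89) and Mlana (-1.81), from Tyr (-1.57) and Tyrp1 (-1.51), or from Dct (-1.27) and Pmel (-1.21). The genes within each of these groups lie within their SEs of each other. All genes share the arrays, so these SEs are not the error of a difference between genes, which was not tested. Of the genes with 1 probe set (Dct, Pmel, Mlana, Oca2 and Gpr143) nothing more can be read. The other 5 genes had 2 to 4 probe sets, and the fitted difference varied among the probe sets of a gene.

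Tyrp1 was at -1.51 with its brightest probe set (1415861_at), at -1.74 (SE 0.16; limma adjusted p = 0.00208) with 1415862_at, and at -2.33 (SE 0.16; limma adjusted p = 0.00114) with 1439409_x_at. The last of these gave 8388 and 9756 signal units in emN1, 51341 and 54094 in anN1, and 39659 and 37933 in wild-type. Tyr was at -1.57, at -2.32 (SE 0.13; limma adjusted p = 7.58e-04) with 1456095_at, and at -1.60 (SE 0.26; limma adjusted p = 0.0148) with 1448821_at. On 1456095_at the Tyr signals were 682 and 1517 in emN1, 3870 and 6581 in anN1, and 7443 and 7263 in wild-type, so that here wild-type and not anN1 was highest. All 3 probe sets of each enzyme gene placed both emN1 arrays under all controls, and only the size of the gap differed.

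Trpm1 varied in the other direction. Its brightest probe set showed the largest decrease, and the other 3 were at -1.71 (1437445_at; SE 0.33; limma adjusted p = 0.0271), -1.64 (1437531_at; SE 0.27; limma adjusted p = 0.0141) and -1.19 (1440241_at; SE 0.23; limma adjusted p = 0.0299). The probe set 1437445_at gave 1046 and 739 signal units in emN1, 5374 and 2798 in anN1, and 1494 and 1455 in wild-type, a gap between the 2 kinds of control that the brightest probe set lacked. Slc45a2 had -1.40 (SE 0.18; limma adjusted p = 0.00645) with 1437430_at, where signals were 1287 and 718 in emN1, 3855 and 1616 in anN1, and 1624 and 2129 in wild-type. Mc1r had -2.01 (SE 0.29; limma adjusted p = 0.00934) with 1422069_at, where signals were 202 and 121 in emN1, 936 and 629 in anN1, and 521 and 412 in wild-type. This Mc1r probe set came closest to the background limit.

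Counted by probe set, 19 of 19 were called lower in emN1 than in the controls (1.37% of all probe sets), 18 of 19 lower than in anN1 (0.662%) and 15 of 19 lower than in wild-type (0.629%). The probe set not called against anN1 was 1440241_at of Trpm1 (limma adjusted p = 0.0679). Those not called against wild-type were the same one (0.183), 1448821_at of Tyr (0.099), 1422069_at of Mc1r (0.0684) and 1437445_at of Trpm1 (0.0563), all limma adjusted p. Probe sets of a gene share its RNA and are not separate evidence.

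**Figure D3:**
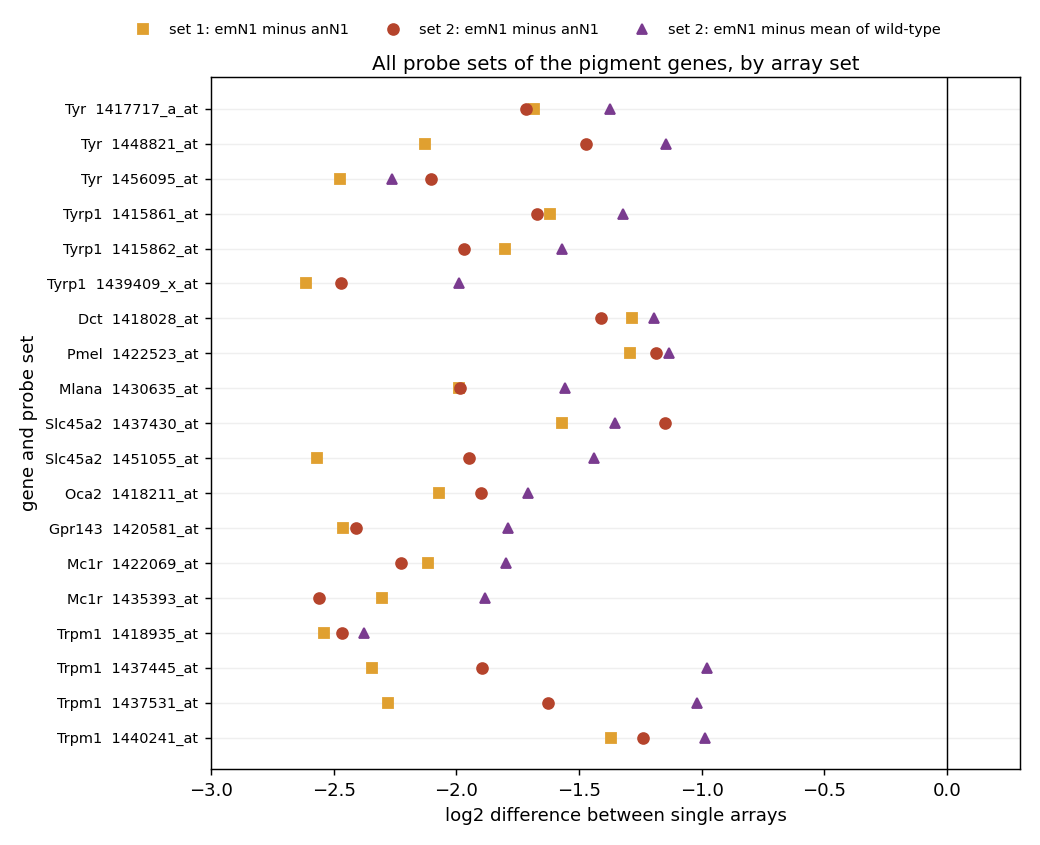
Log2 differences between single arrays (x axis) for all 19 probe sets of the pigment genes, in set 1 and set 2 against anN1 and in set 2 against the wild-type mean. Every point lies below 0, from -2.61 to -0.98.

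Most of the wider set of genes that build, sort and move melanosomes did not pass the test. Of 40 genes listed for melanosome assembly and transport, 37 were measured (Slc24a5, Cd63 and Bloc1s1 were not analysed here). In emN1 against the controls 6 fell (1.83% of all genes did), 1 rose (3.58% of all genes did) and 30 did not pass. Their median difference was -0.17. The 6 were Rab38, Slc24a4, Rab27a, Sytl2, Rab32 and Myo5a, and the 1 that rose was Rab17. Rab38, a small GTPase that brings Tyr and Tyrp1 to the melanosome and is mutated in the chocolate mouse, gave 6878 and 4515 signal units in emN1, 26416 and 15110 in anN1, and 12223 and 14463 in wild-type. It fell by 1.74 (SE 0.13; limma adjusted p = 0.00127), and its other probe set gave -1.70. Rab32, its close relative, fell by 0.81 (SE 0.17; limma adjusted p = 0.0356).

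Rab27a, the GTPase that ties mature melanosomes to Myo5a through Mlph, had 278 and 244 signal units in emN1, 926 and 818 in anN1, and 637 and 752 in wild-type. It fell by 1.58 (SE 0.24; limma adjusted p = 0.011), but another kept probe set of Rab27a did not pass (-1.01, limma adjusted p = 0.319). Of its partners, Myo5a, the motor, fell by 0.57 (SE 0.11; limma adjusted p = 0.0244) with its other 2 probe sets not past the threshold, and Sytl2, another Rab27 effector, fell by 1.13 (SE 0.13; limma adjusted p = 0.00387). Mlph, the linker, had a difference of -0.81 (SE 0.22) that did not pass (limma adjusted p = 0.100); Myo5a, Mlph and Gpnmb were named after their values were seen. Slc24a4, a potassium-dependent sodium-calcium exchanger, fell by 1.73 (SE 0.21; limma adjusted p = 0.00519). Rab17, a GTPase of recycling endosomes that is also found in epithelial cells, had 937 and 792 in emN1, 375 and 400 in anN1, and 356 and 314 in wild-type, and rose by 1.18 (SE 0.25; limma adjusted p = 0.0387). Gpnmb, a relative of Pmel that macrophages also express, had 17718 and 24062 in emN1, 19667 and 23565 in anN1, and 23343 and 22864 in wild-type. Its groups overlapped, and its difference was -0.03 (SE 0.09; limma adjusted p = 0.915).

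Among 16 listed regulators of the melanocyte lineage, 14 were kept (Sox9 and Tfec were too dim). Of these, 4 fell (1.83% of all genes did), 0 rose in limma (3.58% of all genes did) and 10 did not pass. Their median difference was -0.22. Sox10, a transcription factor that maintains the lineage, had 236 and 586 signal units in emN1, 2248 and 1681 in anN1, and 1811 and 2270 in wild-type. It fell by 2.27 (SE 0.32; limma adjusted p = 0.00832), while its other kept probe set did not pass (-0.68, limma adjusted p = 0.338). Pax3, which acts upstream of Mitf, fell by 1.54 (SE 0.21; limma adjusted p = 0.0068), with 436 and 389 in emN1, 1070 and 1347 in anN1, and 1392 and 1230 in wild-type. Ednrb, the endothelin receptor of melanoblasts, fell by 0.50 (SE 0.09; limma adjusted p = 0.0247), with its other 2 probe sets not past the threshold.

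Kitl, the ligand of Kit, is made by keratinocytes and dermal cells and sustains melanocytes. It had 5187 and 4721 signal units in emN1, 15910 and 15897 in anN1, and 14045 and 12383 in wild-type. It fell by 1.59 (SE 0.12; limma adjusted p = 0.00154), with both emN1 arrays far under the 4 controls. Of its other 3 probe sets 1 passed (-1.45, limma adjusted p = 0.0095) and 2 did not (-0.79 and -0.54). Kit, its receptor, had 3090 and 2924 in emN1, 5051 and 3506 in anN1, and 4468 and 4541 in wild-type, a difference of -0.58 (SE 0.15) that did not pass (limma adjusted p = 0.0808). Mitf, the regulator of the pigment genes, had 7823 and 5904 in emN1, 10142 and 9044 in anN1, and 6183 and 5731 in wild-type. Its emN1 and wild-type signals overlapped, and its difference was -0.28 (SE 0.18; limma adjusted p = 0.526). Kit and Mitf were named after their values were seen.

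Of 10 genes listed for the switch between black and yellow pigment, 8 were measured (Asip and Pcsk2 were not analysed here). Among them 1 was lower (1.83% of all genes were) and 7 were not past the threshold, with a median difference of 0.02. The 1 was Edn1, endothelin 1, a keratinocyte product that acts on melanocytes, which fell by 1.11 (SE 0.24; limma adjusted p = 0.0468). Edn1 signals were 649 and 438 in emN1, 1009 and 1232 in anN1, and 1055 and 1366 in wild-type. Against anN1 alone the genes lower in emN1 were 5 of 37, 3 of 14 and 0 of 8 in the 3 lists (0.896% of all genes). Against wild-type alone they were 4, 2 and 0 (0.872% of all genes), all by limma.

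**Figure D4:**
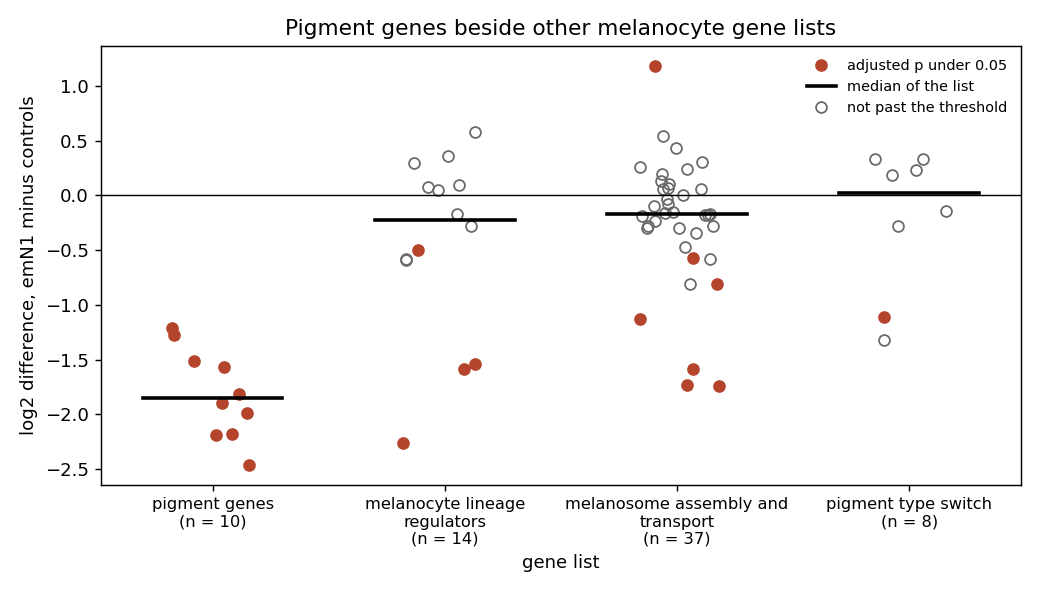
Fitted log2 differences, emN1 minus controls (y axis), of the pigment genes and of the genes in the other pigment lists; filled points passed the limma test at an adjusted p of 0.05, and bars are medians. The 10 pigment genes lie at or below -1.21, while the lists of 14, 37 and 8 genes have medians of -0.22, -0.17 and 0.02.

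Genes whose signal followed the pigment genes across the 6 arrays were ranked by Pearson correlation with their mean, among 12601 other genes. Rab27a came first (r = 0.998), followed by Gpr137b-ps (0.995), Phlda1 (0.994), Trip13 (0.992), Scrn2 (0.992), Apobec1 (0.991), Arl2bp (0.991), Epdr1 (0.990), Gpr137b (0.989) and Lpcat1 (0.988). Kitl ranked 12 (0.988). With 6 arrays in 3 groups r was still 0.966 at rank 61 (Rab32) and 0.951 at rank 97 (Rab38). A high r says nothing of size. The 10 were picked on these same arrays for following genes that were low in emN1, so low emN1 signals follow from the choice. Their differences and p-values are a description and no separate evidence. Of the 10, Scrn2 (-0.14) and Arl2bp (-0.28) did not pass in emN1 against the controls, and the other 8 did (1.83% of all genes were called lower). Epdr1, an ependymin-related secreted protein, had 912 and 1114 signal units in emN1, 4217 and 4062 in anN1, and 2739 and 3003 in wild-type, and fell by 1.78 (SE 0.22; limma adjusted p = 0.00519). Apobec1, the cytidine deaminase that edits Apob messenger RNA, was lower in emN1 (limma adjusted p = 0.00296). Both of its emN1 signals, 76.5 and 34.0, were under the background limit, and with them raised to that limit Apobec1 was at least 4.90-fold lower in emN1 than in the controls. Gpr137b and Gpr137b-ps bear related names, and whether their probe sets read separate transcripts was not checked.

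Markers of the cell types that a bulb can hold were summed on each array, and their part in the decrease of the pigment genes was not tested. Beside the counts of markers called, 1.83% of all genes were called lower in emN1 than in the controls and 3.58% higher. For melanocytes, 8 of 10 markers outside the pigment genes were measured, and 5 fell (Sox10, Rab38, Rab27a, Pax3 and Ednrb, all given above), with a median difference of -1.06. Their summed signal was 48879 to 53337 in emN1, 78049 to 81700 in anN1, and 71079 to 73890 in wild-type. Gpnmb, which did not pass and which macrophages also express, made up much of these sums. It had 17718 and 24062 in emN1, 19667 and 23565 in anN1, and 23343 and 22864 in wild-type. Hair matrix and shaft markers, 9 of them, summed to 229382 to 231783 in emN1, 221403 to 240327 in anN1, and 224914 to 235678 in wild-type, with 0 lower and 1 higher (Shh). Krt71, an inner root sheath keratin, made up much of these sums, with 123357 and 107513 in emN1, 100705 and 104193 in anN1, and 79355 and 99004 in wild-type. Without Krt71, a choice made after seeing the data, the other 8 markers summed to 106025 to 124270 in emN1, 117210 to 139622 in anN1, and 136674 to 145559 in wild-type, so that emN1 lay below wild-type and overlapped with anN1. Krt35, a keratin of the shaft, had 40609 and 45247 in emN1, 72332 and 46226 in anN1, and 65641 and 60195 in wild-type and did not pass (limma adjusted p = 0.131).

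In other lists more markers were called higher than lower in emN1. The same held over all genes, of which 3.58% were called higher and 1.83% lower. The 9 macrophage and Langerhans cell markers kept (Cd207 was too dim) summed to 6814 to 7785 in emN1, 1686 to 1753 in anN1, and 1578 to 1675 in wild-type, with 3 higher (Csf1r, Ctss and H2-Aa), 0 lower and 6 not past the threshold. The 7 fibroblast markers summed to 95325 to 113596 in emN1, 62344 to 67669 in anN1, and 61017 to 81081 in wild-type, with 4 higher (Col1a2, Col3a1, Lum and Thy1) and 0 lower. The 7 markers of basal keratinocytes and outer root sheath kept summed to 141224 to 157064 in emN1, 94963 to 109928 in anN1, and 101018 to 105536 in wild-type, with 3 higher (Krt15, Krt14 and Krt5) and 1 lower (Krt17). For Schwann cells, which share Sox10 with melanocytes, 4 of 10 markers were kept, 1 was higher (Pmp22) and 0 lower, and the sums were 12641 to 15350 in emN1, 7127 to 11999 in anN1, and 7252 to 10711 in wild-type. Most of the Schwann sum was Egr2, which did not pass (limma adjusted p = 0.27), and S100b had a difference of -0.71 that did not pass either.

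Dermal papilla markers, of which 8 were kept, had sums of 23400 to 25030 in emN1, 21937 to 27911 in anN1, and 25384 to 26475 in wild-type, with 1 lower (Rspo3) and 1 higher (Vcan). The 3 adipocyte markers summed to 20900 to 23867 in emN1, 16509 to 28226 in anN1, and 12442 to 14227 in wild-type, with 0 past the limma threshold. Of the endothelial and skeletal muscle markers, 2 each were kept, and 0 passed in limma. These counts of 0 are at an adjusted p of 0.05 over all probe sets.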

How the data were processed

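Hair bulb RNA from 6 samples was measured on one-colour oligonucleotide arrays. Per probe set the authors deposited 1 linear intensity for each array, and the submitters' processing notes name MAS5, with no version. Groups came from the sample titles, and array sets from the series' design text. Of 45101 probe sets, 64 were controls and stayed out of the tests. Genes were named from the platform annotation: 34958 probe sets had 1 symbol, 932 several and 9211 none, and 34754 matched a RefSeq gene table by gene ID. Intensities were taken as log2(intensity + 17.8), the addend being their 10th percentile, and the upper 60% by mean, 27022 probe sets of 12611 genes, were fitted in limma 3.58.1 (R 4.3.3) with intensity trend and array set. The design text pairs emN1 and anN1 by set (r of replicate differences 0.38 across probe sets). Genes were represented by their brightest probe set. The number of arrays limits the precision.

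The 10 genes, the lists and the motifs were chosen with earlier results of these data known. The text names all 10 genes with every probe set, at most 6 genes of each list past the threshold, and the 10 genes most like them across arrays, with exceptions marked. The background limit came from 20 bacterial control probe sets (120 values, median 24.4). The fit was checked on simulated data, where it returned the sizes of the changes put in but called only part of them. Motifs were searched on both strands of the 250 bases before each start with Python 3.11.15. Alternatives covered the addend, the filter, normalization, the trend, the set term, the probe set rule, a floor and each array left out.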

Additional observations from a re-analysis of the deposited data

Results flagged for a closer look

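Control probe sets for Cre recombinase, outside the comparisons above, gave signal in the emN1 and anN1 arrays above the wild-type level. The first, against the 3′ end of Cre, had 434 and 409 signal units in emN1, 395 and 515 in anN1, and 62.4 and 79.0 in wild-type. Another had 428 and 349 in emN1, 353 and 612 in anN1, and 29.2 and 4.29 in wild-type. Values of emN1 and anN1 overlapped for both. For these 2 probe sets all wild-type values were under the background limit of 112, and all emN1 and anN1 values were above it. The probe sets against the 5′ end were dimmer. The first had 71.1 and 101 in emN1, 11.4 and 27.4 in anN1, and 3.12 and 4.25 in wild-type, all under that limit. The second had 205 and 93.7 in emN1, 124 and 187 in anN1, and at most 33.4 in wild-type, with emN1 replicate 2 under the limit.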

How the results depend on the processing

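All 10 pigment genes were lower in emN1 than in the controls, in anN1 and in wild-type, each at an unadjusted limma p under 0.05, in all 15 alternatives run. With all 6 arrays and the main settings, 20.7%, 17.2% and 17.3% of all genes had such an unadjusted p in these 3 comparisons, counting both directions. The adjusted calls depended on 2 choices and on single arrays. Without the intensity trend, limma called 0 pigment genes lower than in the controls, 0 against anN1, 0 against wild-type, and 0 genes of all as different from the controls (2186 had an unadjusted p under 0.05, and the smallest adjusted p was 0.0521). Without the array set as a replicate block, the pigment genes called were 9, 7 and 8. Of all genes, 0.5%, 0.0872% and 0.278% were called lower in the same comparisons. Mlana was lost against the controls (limma adjusted p = 0.0935). In that fit 206 genes of all differed from the controls, where 682 did with the set term. Leaving out 1 array at a time gave 1 to 10 pigment genes against the controls, 0 to 10 against anN1, 0 to 10 against wild-type, and 1 to 720 genes of all, with the fewest pigment genes without emN1 replicate 2. Those fits leave a group with 1 array, assumed to vary like the others. The median difference from the controls stayed between -2.03 and -1.65. The value of -2.03 came without emN1 replicate 2, where emN1 occurs only in set 1. With the set term it is the difference of 1 emN1 array from 1 anN1 array, and wild-type does not enter it. Addends of 1 and 50, no filter, the upper 40%, quantile normalization, the mean over probe sets and a floor at the background limit each kept 10 of 10 in the 3 comparisons. At most 2.48% of all genes were called lower in those fits. No pigment gene was called between anN1 and wild-type by limma in any alternative (0 to 6 at an unadjusted p under 0.05). Signals over background did not limit the 10 genes, but 2 arrays a group did.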
